A study of Mus musculus with 20 samples.

Results

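Imprinted genes grouped with Peg10, 10 in all, were followed through 20 mouse liver libraries in which hepatocytes had received a guide RNA against HIRA, a chaperone that deposits histone H3.3 outside DNA replication, or a control guide against the Rosa26 locus. The genes were Peg10, Sgce, H19, Igf2, Meg3, Rian, Peg3, Igf2r, Grb10 and Plagl1, found by their symbols in the deposited gene table, which gave 10 genes of 55421. All 10 had at least 10 counts over the 20 libraries and entered the 22867 genes tested. Peg10 was selected on its own value, the difference between HIRA and Rosa26 livers at 6 months, and the other 9 were placed beside it as imprinted genes of the same or other loci. For these 10 genes the 6-month differences between guides therefore carry no p-values. Where such a difference is said to pass or miss a threshold, this describes the selection and is not evidence. Fold change p-values appear only at 3 weeks and, for genes other than Peg10, in the control livers over time. That last comparison shares its 6-month control libraries with the selecting one, so its p-values are not independent of the selection. Permutation p-values for relations between genes use deviations from group means in all 20 libraries, the 6-month ones included. Genes outside the 10 keep their p-values at all times.

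An imprinted gene is transcribed mainly from the chromosome of 1 parent, because a control region carries DNA methylation from only the egg or only the sperm. The mark is kept through cell division by DNA methyltransferases and by KRAB zinc finger proteins that bind the methylated copy. Many imprinted genes regulate growth before birth, and in liver several of them, H19 and Igf2 above all, are very active in the fetus and are silenced after birth. Peg10, Sgce, Igf2, Peg3 and Plagl1 are expressed from the paternal copy, and H19, Meg3, Rian, Igf2r and, in most tissues, Grb10 from the maternal copy. Gene counts do not separate the parental copies, so the values below are levels and do not measure imprinting.

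The mice were wildtype C57BL/6 animals, labelled female, injected at 6 months of age with an AAV8 vector that carried saCas9 under the Tbg promoter and a U6-driven sgRNA, either sgRNA-HIRA or the control sgRNA-Rosa26. Livers were taken 3 weeks or 6 months later, with 5 animals in each of the 4 groups. Every animal thus carried the vector and the nuclease. The Tbg promoter limits the nuclease to hepatocytes, so the other cells of the liver kept HIRA while their RNA remained in these whole-tissue libraries. Hira itself had 128 to 171 counts in the Rosa26 and 87 to 127 in the HIRA livers at 3 weeks, a log2 fold change of -0.48 ± 0.14 (SE) with an adjusted p of 0.197 in edgeR's quasi-likelihood test. At 6 months it had 105 to 157 and 109 to 136 counts (-0.10 ± 0.14, adjusted p = 0.794), and a small insertion or deletion made by the nuclease need not lower the count. The libraries held 19915007 to 24077577 counts. The HIRA 6-month replicate 5 had 9 counts of Xist, against 6286 to 8436 in the other 19 libraries, and 2041 counts over 4 Y-linked genes, against at most 13 elsewhere, which goes against its female label. The HIRA 6-month replicate 3 had the highest level of all 12 stellate cell and fibroblast markers examined, with a sum of 961 CPM (counts scaled to library size) against 224 to 464 in the other 19, and the highest biliary sum, 175 CPM against 78.5 to 153. The Rosa26 6-month replicate 3 had a Kupffer cell and macrophage marker sum of 1970 CPM, against 174 to 1180 in the other 19, with 8 of the 10 markers highest in it. It also had the highest lymphocyte (63.5 CPM) and proliferation (76.5 CPM) sums and the lowest hepatocyte sum, 90000 CPM against 102000 to 171000. Hepatocyte markers were abundant throughout, Alb having at least 1515073 counts in every library. Because these are bulk libraries, fewer cells of a type and less RNA per cell cannot be told apart.

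Per kilobase of merged exon, Igf2r was the most abundant of the genes, at 4.72 ± 0.573 CPM per kilobase (SD, n = 20, range 3.62 to 5.62). H19 had a mean of 1.02, but its median was 0.247 and 1 library reached 13.9. Sgce followed at 0.722 ± 0.194, then Peg3 at 0.39 ± 0.148, Grb10 at 0.346 ± 0.0983, Peg10 at 0.243 ± 0.219 and Plagl1 at 0.144 ± 0.0722. The ranges of these last 5 genes overlapped from each to the next in order. Meg3 lay at 0.073 ± 0.0257 and Rian at 0.0213 ± 0.00983, and Igf2 was lowest at 0.00795 ± 0.00953. On this scale Igf2r alone lay above every library of every other gene apart from the 1 H19 value. The order depends on the scaling, and the deposited FPKM gave another. Mean FPKM of Sgce was 4.09 and 5.0 in the Rosa26 and HIRA livers at 3 weeks, and 3.03 and 5.22 at 6 months. For Igf2r these means were 3.64, 4.4, 4.12 and 4.42. Igf2 had 0.359, 0.329, 0.443 and 0.702 in the same order, above Peg10 at 0.137, 0.243, 0.0712 and 0.392.

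Peg10 (ENSMUSG00000092035.8, chr6:4747306-4760517, plus strand, GRCm38, 2 merged exons) encodes a protein derived from the gag and pol genes of a retrotransposon and is needed for the placenta. Sgce (ENSMUSG00000004631.15, chr6:4674350-4747207, minus strand) encodes epsilon-sarcoglycan, a membrane protein of the dystrophin complex. The annotated starts of the pair lie 99 bases apart and point away from each other. Peg10 had 29, 15, 22, 17 and 27 counts in the Rosa26 livers at 3 weeks and 42, 33, 63, 25 and 32 in the HIRA livers. At 6 months the Rosa26 livers had 10, 26, 5, 5 and 13 counts and the HIRA livers 148, 31, 42, 25 and 100. The control mean was 0.15 ± 0.39 log2 CPM at 3 weeks and -0.89 ± 0.86 at 6 months (SD, n = 5), and the HIRA mean was 0.86 ± 0.52 and 1.36 ± 1.03. Replicates 1 and 5 stood far above the other 3 HIRA livers, at 5.79 and 5.08 CPM against 1.22 to 1.74. Replicate 5 was the liver that went against its female label, and it had the lowest Kupffer and macrophage (174 CPM), biliary (78.5 CPM) and lymphocyte (12.7 CPM) marker sums of the 20 libraries. The lowest HIRA liver and the highest control liver were side by side, at 1.22 and 1.21 CPM, so the 6-month groups did not overlap by a margin of less than 1 read.

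The fitted Peg10 difference was 2.51 ± 0.49 on the log2 scale at 6 months (SE), 5.68-fold, and it is the value on which the gene was selected. At 3 weeks it was 0.80 ± 0.46, 1.74-fold, with an adjusted p of 0.681 (edgeR), and the groups overlapped. The spread in this fit was estimated over all 20 libraries, the 6-month ones included. Fitted on the 3-week libraries alone, the 3-week difference was 0.79 with an adjusted p of 0.254 (edgeR). The 6-month minus 3-week difference was -0.97 ± 0.51 in the Rosa26 livers and 0.74 ± 0.44 in the HIRA livers. The HIRA effect at 6 months minus that at 3 weeks was 1.71 ± 0.67, given without a test because it contains the selecting value. Leaving out HIRA 6-month replicate 1 lowered the 6-month difference to 2.13, leaving out replicate 5 lowered it to 2.25, and leaving out both libraries that stood apart, replicates 3 and 5, gave 2.40.

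Sgce had 157, 142, 121, 185 and 158 counts in the Rosa26 livers at 3 weeks and 208, 230, 180, 180 and 165 in the HIRA livers. At 6 months it had 138, 156, 82, 79 and 141 counts in the controls and 297, 200, 201, 136 and 189 in the HIRA livers. The control livers with the fewest Sgce counts at 6 months, replicates 3 and 4, were also those with the fewest Peg10 counts, and HIRA replicate 1 was the highest of 20 libraries for both genes. Control replicate 3 was the liver with 1970 CPM of Kupffer cell and macrophage markers, and replicate 4 had 329 but the lowest stellate and fibroblast (224 CPM) and sinusoidal endothelial (213 CPM) sums of the 20 libraries. The part of these cells in the low values was not tested. Without replicate 3 the 6-month difference was 2.30 for Peg10 and 0.64 for Sgce, and without replicate 4 it was 2.32 for Peg10, which then no longer passed the call. The HIRA group had the same mean at both times, 3.17 log2 CPM with an SD of 0.19 at 3 weeks and 0.29 at 6 months, whereas the control mean was 2.87 ± 0.22 at 3 weeks and 2.39 ± 0.47 at 6 months (SD, n = 5). The HIRA difference was 0.30 ± 0.19 at 3 weeks (1.23-fold, adjusted p = 0.712, edgeR) and 0.76 ± 0.19 at 6 months (1.69-fold). In the controls over time the difference was -0.44 ± 0.19 (adjusted p = 0.322, edgeR). The 6-month groups overlapped in Sgce, with 3.53 to 7.27 CPM in the controls and 6.65 to 11.6 in the HIRA livers.

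**Figure D1:**
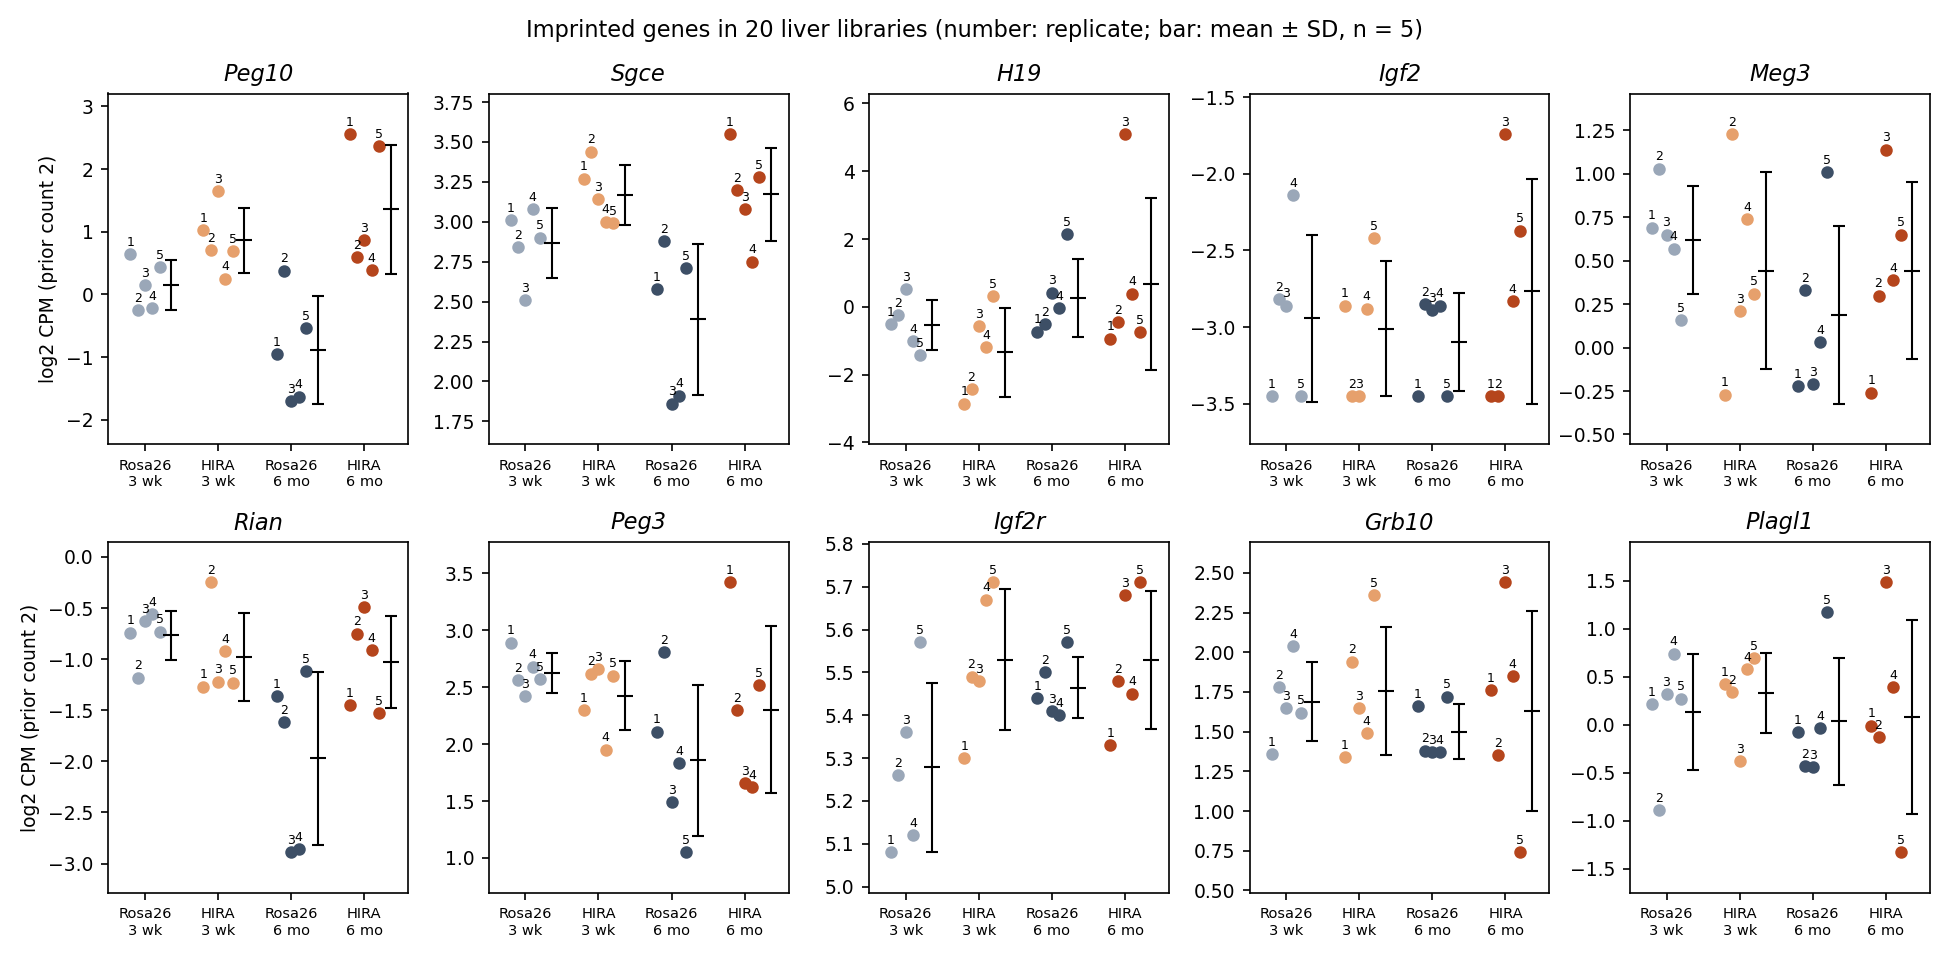
Level of each of the 10 genes in each library, in log2 CPM with a prior count of 2, by guide and time after injection. Numbers are replicates and the bar is the mean ± SD of 5 libraries. At 6 months control replicates 3 and 4 are the lowest for Peg10, Sgce and Rian, and HIRA 6-month replicate 3 is the highest library for H19, Igf2, Grb10 and Plagl1.

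Peg3 (ENSMUSG00000002265.17, chr7:6703892-6730431, minus strand) encodes a large zinc finger protein. It had 144, 116, 114, 140 and 126 counts in the Rosa26 and 105, 129, 129, 86 and 125 in the HIRA livers at 3 weeks. At 6 months it had 99, 149, 63, 75 and 43 counts in the controls and 271, 106, 74, 61 and 111 in the HIRA livers. Both 6-month groups were spread over a wide range, and the highest library of 20 was again HIRA replicate 1. The difference was -0.19 ± 0.31 at 3 weeks (adjusted p = 0.942, edgeR) and 0.49 ± 0.31 at 6 months, which became 0.09 without HIRA replicate 1, and it was -0.66 ± 0.31 in the controls over time (adjusted p = 0.386).

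H19 (ENSMUSG00000000031.16, chr7:142575529-142578143, minus strand, 3 merged exons) is a long noncoding RNA. Igf2 (ENSMUSG00000048583.16, chr7:142650766-142666816, minus strand) encodes a fetal growth factor, and the annotated starts of the pair are 88673 bases apart. H19 had 12, 15, 29, 9 and 6 counts in the Rosa26 livers at 3 weeks, 1, 2, 12, 8 and 24 in the HIRA livers, 12, 13, 29, 19 and 95 in the Rosa26 livers at 6 months and 11, 14, 824, 25 and 10 in the HIRA livers. A single liver, HIRA 6-month replicate 3, thus held 824 of the 1170 H19 counts of the series, and it is the library in which the stellate and fibroblast markers and the biliary sum were highest. The part of those cells in the H19 value was not tested. The fitted 6-month difference of 2.29 ± 0.99 became -1.12 without that library, so its direction was set by 1 animal. The other 4 HIRA livers had 10 to 25 counts, against 12 to 95 in the controls. At 3 weeks the difference was -0.61 ± 1.23 (adjusted p = 0.956, edgeR), and in the controls over time it was 1.16 ± 1.10 (adjusted p = 0.73).

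In the deposited counts, Igf2 was near the limit of detection. Its counts were 0 in 8 of 20 libraries and summed to 20 over the series, with 1 library, HIRA 6-month replicate 3, above 3 counts, at 5. A count of 0 allows up to 3 counts, or 0.125 to 0.147 CPM at the depth of these 8 libraries, a limit that covers counting error only. No fold change is given for Igf2, since nearly every library was at or under that limit. Of its 5723 exonic bases, 3596 also lie in Gm49394, a protein-coding model on the same strand that had 0 counts, and how reads in shared bases were assigned is not stated. The deposited FPKM gave Igf2 0.192 to 1.97 in all 20 libraries, including those with 0 counts. The antisense gene Igf2os shared 98 exonic bases and had 2 counts.

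The noncoding hosts carry microRNAs, and H19 and Meg3 hold theirs in exons, so those of the H19 and Meg3 transcripts are shown with the seed, bases 2 to 8, in capitals (RefSeq, GRCm38.p6). The hosts' counts do not measure the mature forms, and the hairpin genes Mir675, Mir1906-1 and Mir770 had 0 counts in these poly(A) libraries. No seed was shared among the 13 mature sequences found within H19, Igf2, Meg3 and Rian.
mmu-miR-675-3p (H19, chr7:142577078-142577099): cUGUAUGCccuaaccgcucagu
mmu-miR-675-5p (H19, chr7:142577112-142577133): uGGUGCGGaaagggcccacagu
mmu-miR-1906 (Meg3, chr12:109544588-109544609): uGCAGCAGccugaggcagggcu
mmu-miR-770-5p (Meg3, chr12:109563710-109563731): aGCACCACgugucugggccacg
mmu-miR-770-3p (Meg3, chr12:109563744-109563765): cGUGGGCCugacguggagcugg

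Meg3 (ENSMUSG00000021268.17, chr12:109541001-109571726, plus strand) and Rian (ENSMUSG00000097451.11, chr12:109603940-109661716, plus strand) are noncoding RNAs of the Dlk1-Dio3 region. Rian holds C/D small nucleolar RNAs, and the annotated starts of the pair lie 62939 bases apart. Meg3 had 30, 39, 32, 31 and 22 counts in the Rosa26 and 16, 48, 22, 36 and 24 in the HIRA livers at 3 weeks. At 6 months it had 18, 25, 18, 20 and 42 counts in the controls and 19, 25, 51, 25 and 29 in the HIRA livers. These groups lay on top of each other, with differences of -0.12 ± 0.32 at 3 weeks (adjusted p = 0.968, edgeR) and 0.27 ± 0.32 at 6 months. Meg3 also shares 1228 exonic bases with Gm26906 on the opposite strand, a gene not analysed here.

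Rian had 10, 7, 12, 13 and 11 counts in the Rosa26 and 7, 16, 7, 10 and 7 in the HIRA livers at 3 weeks, and 7, 5, 1, 1 and 8 and 7, 11, 15, 9 and 5 at 6 months. The lowest values came from control replicates 3 and 4, the same livers that were lowest in Peg10 and Sgce, and replicate 3 was the liver high in Kupffer cell and macrophage markers. The HIRA difference was -0.20 ± 0.40 at 3 weeks (adjusted p = 0.956, edgeR) and 1.07 ± 0.44 at 6 months, which was 0.80 without control replicate 3. In the controls over time it was -1.32 ± 0.44 (adjusted p = 0.182). With at most 16 counts in a library, each of these values rests on few reads.

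Igf2r (ENSMUSG00000023830.14, chr17:12682406-12769664, minus strand, 49 merged exons) encodes the receptor that carries IGF2 and mannose 6-phosphate proteins to lysosomes. It had 664 to 1017 counts in the Rosa26 and 850 to 1163 in the HIRA livers at 3 weeks, and 908 to 1034 and 893 to 1231 at 6 months. It varied least of the 10, with an SD within groups of 0.16 log2 CPM against 0.31 for Sgce, 0.74 for Peg10 and 1.58 for H19. The HIRA difference was 0.25 ± 0.10 at 3 weeks (1.19-fold, adjusted p = 0.432, edgeR) and 0.07 ± 0.10 at 6 months.

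Grb10 (ENSMUSG00000020176.17, chr11:11930508-12038683, minus strand) encodes an adaptor that dampens insulin and IGF receptor signalling, and Plagl1 (ENSMUSG00000019817.18, chr10:13060504-13131694, plus strand) a zinc finger transcription factor. Grb10 had 49, 67, 66, 89 and 64 counts in the Rosa26 and 53, 80, 63, 62 and 106 in the HIRA livers at 3 weeks, and 72, 54, 58, 54 and 70 and 84, 54, 129, 72 and 31 at 6 months. Plagl1 had 21, 9, 25, 35 and 24 counts, then 27, 25, 14, 32 and 32, 20, 14, 15, 19 and 47, and 23, 18, 65, 25 and 6 in the same order of groups. The HIRA 6-month group held both the highest and the lowest library of 20 for each gene, replicate 3 and replicate 5. The HIRA differences were 0.10 ± 0.25 for Grb10 (adjusted p = 0.966) and 0.16 ± 0.44 for Plagl1 (adjusted p = 0.969) at 3 weeks in edgeR, and 0.23 ± 0.25 and 0.21 ± 0.44 at 6 months.

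The promoters of Peg3, Plagl1, Grb10 and Meg3 are shown because each holds a match to a motif of factors that bind imprinted regions. Each window runs from 250 bases before to 50 after an annotated start and is written 5′ to 3′ on the gene's strand (RefSeq, GRCm38.p6). Capitals mark a match on either strand to TGCCGC, the letters that ZFP57 binds when methylated, to GGGGCCCC, a core bound by PLAGL1, or to GCCATNTT, the core bound by YY1, and no matches overlapped. Among 32851 promoter windows of the same length, TGCCGC occurred in 11.6%, GGGGCCCC in 1.08% and GCCATNTT in 6.05%. Plagl1, Grb10 and Meg3 held 1 match each to TGCCGC, written GCGGCA where it lies on the other strand, and Peg3 held 1 match to GGGGCCCC. Of 4 windows of Igf2, 1 also held TGCCGC and is not shown. Windows of Peg10, Sgce and H19 were not analysed here. The windows shown had 45 CpG dinucleotides for Grb10, 26 for Plagl1 and 13 each for Peg3 and Meg3, against a median of 7 over all windows. Grb10 and Meg3 each had a second window, with 9 and 1 CpG, and these, the window of Rian (0 CpG) and that of Igf2r (34 CpG) held no match.
Peg3 (chr7:6730370-6730669): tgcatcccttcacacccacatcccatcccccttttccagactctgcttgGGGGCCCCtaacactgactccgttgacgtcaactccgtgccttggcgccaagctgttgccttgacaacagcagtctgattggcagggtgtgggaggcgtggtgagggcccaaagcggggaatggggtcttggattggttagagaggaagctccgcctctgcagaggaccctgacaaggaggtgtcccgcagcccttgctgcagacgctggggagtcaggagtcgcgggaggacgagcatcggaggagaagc
Plagl1 (chr10:13090582-13090881): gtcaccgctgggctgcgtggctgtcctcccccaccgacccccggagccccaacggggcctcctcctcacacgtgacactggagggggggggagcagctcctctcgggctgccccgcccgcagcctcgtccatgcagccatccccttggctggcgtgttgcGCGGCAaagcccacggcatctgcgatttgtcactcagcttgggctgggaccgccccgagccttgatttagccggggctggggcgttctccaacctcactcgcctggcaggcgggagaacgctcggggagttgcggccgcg
Grb10 (chr11:12037371-12037670): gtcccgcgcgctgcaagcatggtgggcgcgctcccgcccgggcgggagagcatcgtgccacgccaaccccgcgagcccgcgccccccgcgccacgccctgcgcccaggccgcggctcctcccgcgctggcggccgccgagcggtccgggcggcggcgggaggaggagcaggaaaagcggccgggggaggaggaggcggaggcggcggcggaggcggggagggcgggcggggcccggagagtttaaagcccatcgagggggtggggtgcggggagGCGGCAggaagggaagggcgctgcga
Meg3 (chr12:109540746-109541045): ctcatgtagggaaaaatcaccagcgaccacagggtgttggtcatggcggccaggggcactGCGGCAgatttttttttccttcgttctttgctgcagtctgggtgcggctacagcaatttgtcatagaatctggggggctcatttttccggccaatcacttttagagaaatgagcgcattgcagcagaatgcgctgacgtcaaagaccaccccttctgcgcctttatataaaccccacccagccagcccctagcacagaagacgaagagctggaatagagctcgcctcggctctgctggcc

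Across the 10 genes, none passed the call used here at 3 weeks in edgeR, an adjusted p under 0.05 with an absolute log2 fold change above 1, against 0.114% of all genes tested. At an unadjusted p under 0.05 there was 1 of 10, Igf2r, against 8.87% of all genes, and neither DESeq2 nor limma called any. In the controls over time none of the 9 genes other than Peg10 was called in edgeR, DESeq2 or limma, where 0.162% of all genes were called in edgeR, and Sgce, Rian and Peg3 had an unadjusted p under 0.05, as did 12.8% of all genes. Nothing is read from these shares, since the control libraries at 6 months entered the selection. No member's groups were free of overlap in either comparison, against 2.69% of all genes at 3 weeks and 3.5% in the controls over time. At 6 months, Peg10 was the 1 gene called, by its selection, against 0.332% of all genes. Groups that did not overlap made up 3.15% of all genes there and, among these 10, Peg10. For the HIRA livers over time, whose 6-month libraries also entered the selection, the 10 genes are described without p-values, and none met the call used for all genes, of which 0.0569% did. The largest of these differences, 4.06 ± 1.13 for H19, rests on the 824 counts of replicate 3 at 6 months. These comparisons share libraries and are given side by side only.

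**Figure D2:**
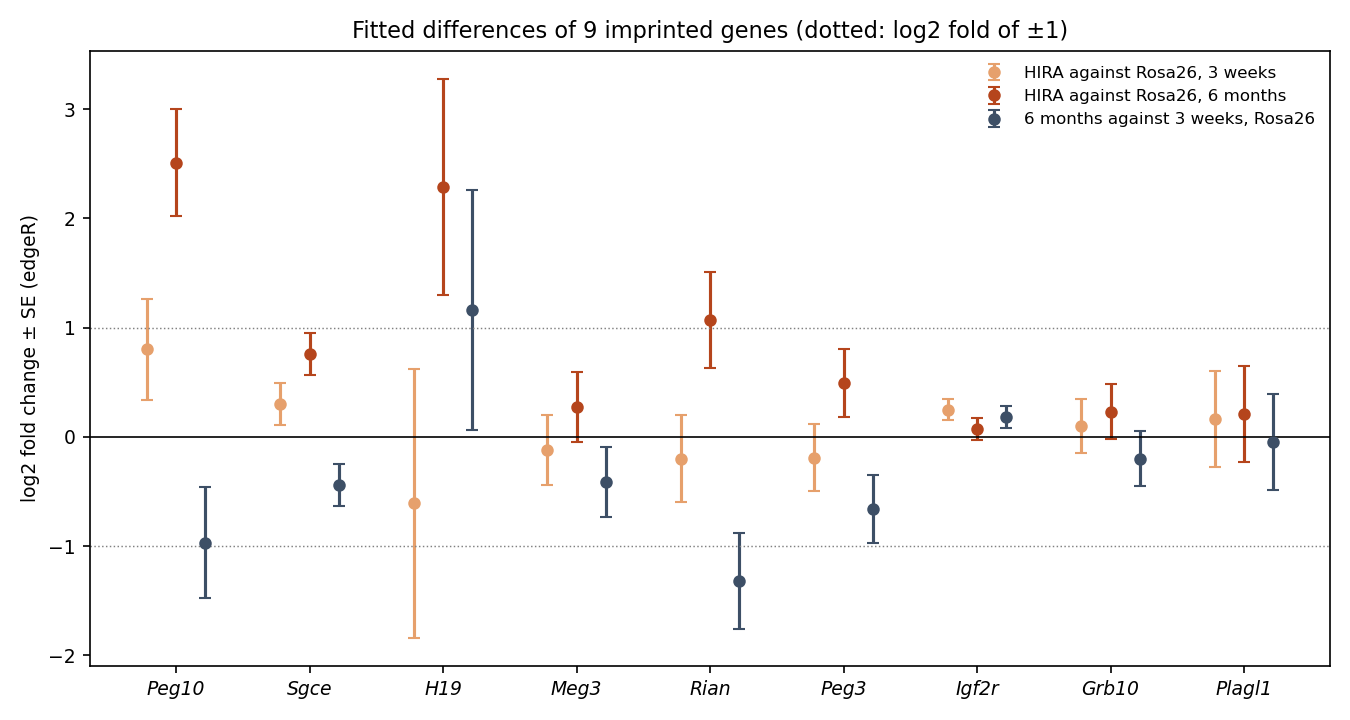
Fitted log2 fold change ± SE of 9 of the genes (Igf2 is left out as near the detection limit) for HIRA against Rosa26 at 3 weeks and 6 months and for Rosa26 livers at 6 months against 3 weeks. Peg10 lies at 0.80, 2.51 and -0.97 in these comparisons and Igf2r at 0.25, 0.07 and 0.18.

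Genes of 1 locus were compared through each library's deviation from its group mean, which sets aside the guide and time differences. Peg10 and Sgce gave Pearson's r = 0.695 (permutation p = 0.00358, adjusted p = 0.0107 over 3 pairs, n = 20 libraries) and Spearman's rho = 0.681 (permutation p = 0.0057, adjusted p = 0.0171). The livers that set Peg10 and Sgce apart above were 6-month livers and are part of this test, so it is not separate from that description, and over all 45 pairs of the 10 genes the adjusted permutation p of this r was 0.161. Without the 2 libraries farthest from the median of Peg10, r was 0.559. On the deposited FPKM, r was 0.47 with an adjusted permutation p of 0.0715, above the threshold. Meg3 and Rian gave r = 0.534 (permutation p = 0.0335, adjusted p = 0.0502) and rho = 0.459 (permutation p = 0.0731, adjusted p = 0.11), and r fell to 0.30 without the 2 farthest libraries. H19 and Igf2 gave r = 0.479 (permutation p = 0.0969) and rho = 0.31 (permutation p = 0.238), and r was 0.10 without HIRA 6-month replicate 3. All permutations were 2-sided, shuffled libraries within groups and numbered 100000.

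**Figure D3:**
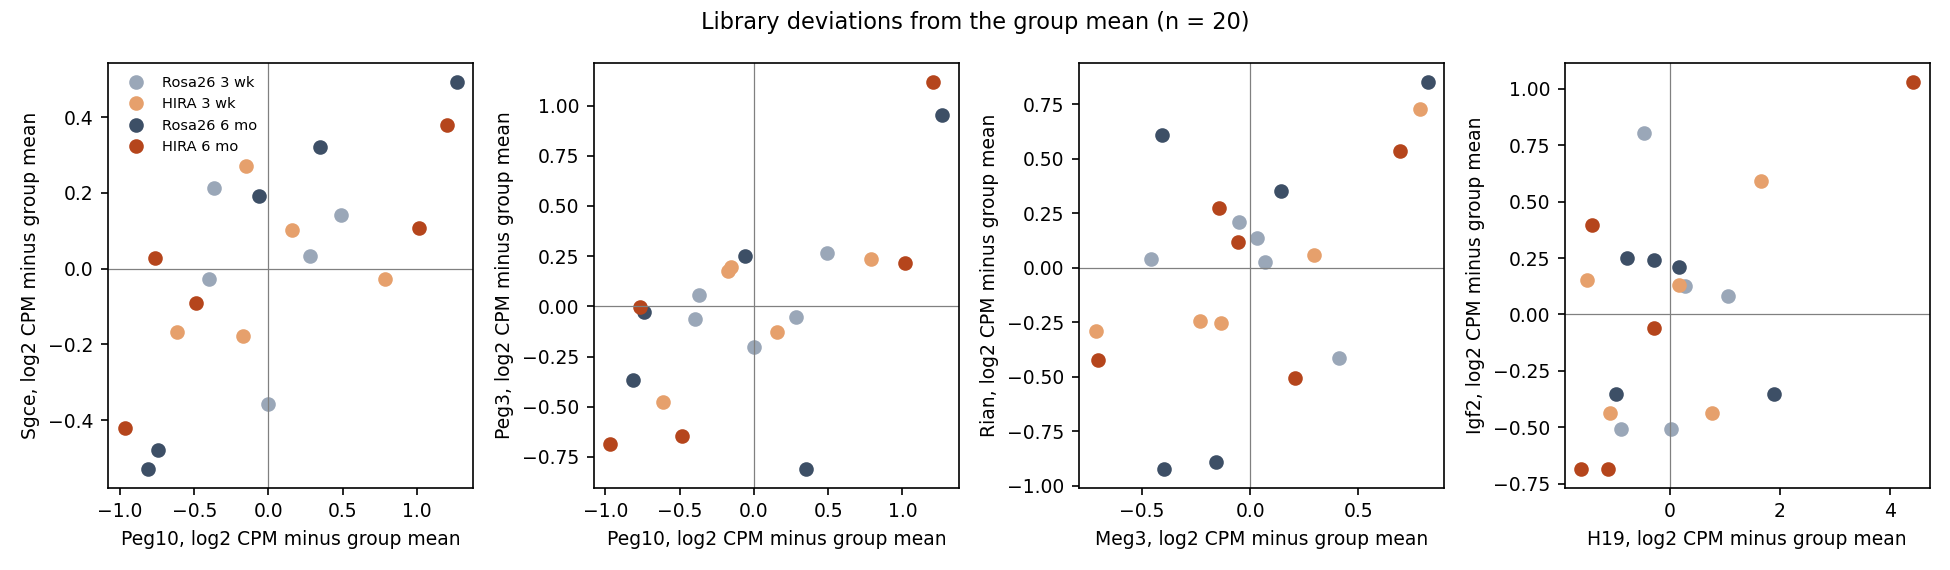
Deviation of each library from its group mean in log2 CPM (n = 20, prior count 2) for Peg10 with Sgce, Peg10 with Peg3, Meg3 with Rian and H19 with Igf2, coloured by group. The r of Peg10 is 0.695 with Sgce and 0.684 with Peg3, and a single HIRA 6-month library lies far to the right for H19.

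All 45 pairs of the 10 genes were then computed, a step chosen after seeing the data. None had an adjusted permutation p under 0.05 over the 45, and r ranged from -0.54 to 0.69. Beyond the locus pairs, Grb10 and Plagl1, on different chromosomes, had r = 0.686 (permutation p = 0.0083, adjusted p = 0.164) with rho = 0.585 (permutation p = 0.0168, adjusted p = 0.241). Peg10 and Peg3, also on different chromosomes, had r = 0.684 (permutation p = 0.0152, adjusted p = 0.171) with rho = 0.614 (permutation p = 0.0224, adjusted p = 0.241). Without the 2 farthest libraries these r were 0.344 and 0.436.

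Each gene's deviations were set against those of the summed CPM of 6 marker lists, hepatocyte, stellate and fibroblast, sinusoidal endothelial, Kupffer and macrophage, biliary, and lymphocyte, which gave 60 relations, also chosen after seeing the data. In Pearson's r, 3 of the 60 passed the adjusted threshold, and in ranks none did. Plagl1 gave the highest, with the stellate and fibroblast sum (r = 0.799, permutation p = 0.0022, adjusted p = 0.047, rho = 0.66, permutation p = 0.00376, adjusted p = 0.223), followed by Grb10 (r = 0.774, permutation p = 0.00234, adjusted p = 0.047, rho = 0.615, permutation p = 0.00742, adjusted p = 0.223). The third was Grb10 with the biliary sum (r = 0.713, permutation p = 0.00235, adjusted p = 0.047, rho = 0.603, permutation p = 0.0112, adjusted p = 0.224). Without the 2 libraries farthest in the marker sum, these r were 0.565, 0.458 and 0.526. H19 had r = 0.668 with the stellate and fibroblast sum (permutation p = 0.0428, adjusted p = 0.406, rho = 0.408, permutation p = 0.0909, adjusted p = 0.455), which became 0.243 without the 2 farthest libraries. Peg10 had r = -0.365 with that sum (permutation p = 0.296, adjusted p = 0.648, rho = -0.374, permutation p = 0.158, adjusted p = 0.49). With the Kupffer and macrophage sum, Sgce had r = -0.573 (permutation p = 0.0407, adjusted p = 0.406, rho = -0.417, permutation p = 0.122, adjusted p = 0.455) and Peg10 r = -0.486 (permutation p = 0.126, adjusted p = 0.541, rho = -0.31, permutation p = 0.263, adjusted p = 0.657). Without the 2 libraries farthest in that sum these r were -0.476 and -0.276.

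**Figure D4:**
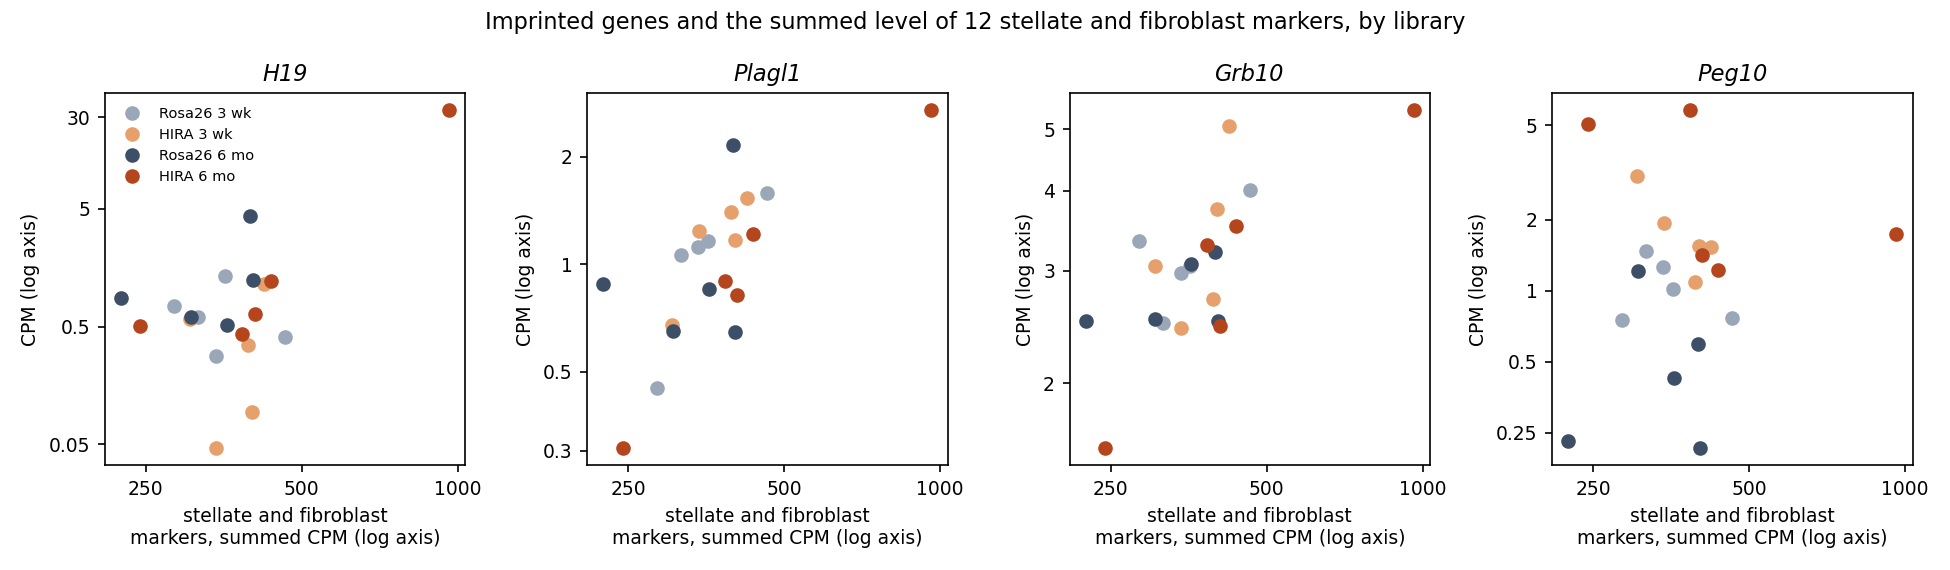
CPM of H19, Plagl1, Grb10 and Peg10 against the summed CPM of 12 stellate cell and fibroblast markers, 1 point for each of 20 libraries, on log axes and coloured by group. The library at 961 summed CPM is HIRA 6-month replicate 3, highest in H19, Plagl1 and Grb10, and the library at 244 is HIRA 6-month replicate 5, lowest in Plagl1 and Grb10.

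By group, the stellate and fibroblast sum ran from 284 to 464 CPM in the Rosa26 and 304 to 423 in the HIRA livers at 3 weeks, and from 224 to 402 and 244 to 961 at 6 months. Of its 12 markers, 0 were called at either time in edgeR, DESeq2 or limma, with 0 and 3 at an unadjusted p under 0.05 and a median log2 fold change of 0.12 and 0.50. Its member Hand2, a transcription factor of stellate cells, was higher in the HIRA livers at 6 months by 0.78 ± 0.18 (adjusted p = 0.0379, edgeR), below the fold threshold. The sinusoidal endothelial sum ran from 213 to 421 CPM in the controls and 258 to 450 in the HIRA livers at 6 months, with 0 of 10 markers called by the same 3 tools, 4 at an unadjusted p under 0.05 and a median of 0.30. Among all genes, 8.87% at 3 weeks and 15.5% at 6 months had an unadjusted p under 0.05, with medians of -0.01 and 0.03. The part of these cells in the 6-month differences of the 10 genes was not tested. The hepatocyte, Kupffer and macrophage, biliary and lymphocyte lists also had 0 genes called at either time by the 3 tools. At an unadjusted p under 0.05 they had 1, 0, 0 and 2 at 3 weeks and 1, 0, 0 and 0 at 6 months. Their median log2 fold changes were 0.04, 0.03, -0.02 and 0.57 at 3 weeks and 0.14, -0.16, 0.15 and 0.32 at 6 months. All 9 lymphocyte markers were higher in the HIRA livers at both times, and the 2 at 3 weeks were 22.2% of them. The 13 proliferation genes also had 0 called by the 3 tools, with 1 at an unadjusted p under 0.05 at each time, Ccnb2. Their medians were 0.49 and 0.22, with 11 and 8 of the 13 higher in the HIRA livers.

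The genes whose deviations were most like those of Peg10 lay outside the imprinted list. Among 11956 named genes with a mean of at least 1 CPM, the closest was Sox12 (r = 0.87, rho = 0.88), a SoxC transcription factor. Next came Phc1 (r = 0.84, rho = 0.86), a polycomb repressive complex protein, and Frat1 (r = 0.84, rho = 0.86), which binds the kinase GSK3. Tulp4 (r = 0.83, rho = 0.82) and Ppm1g (r = 0.82, rho = 0.81), a nuclear protein phosphatase, followed, all over 20 libraries. As the largest of 11956 correlations, these r are raised by the choice itself. They were not recomputed without the farthest libraries. Sgce ranked 129 and Peg3 154 in order of r. The remaining members that met this minimum, Igf2r, Meg3, H19, Plagl1 and Grb10, had r from -0.31 to 0.01 with Peg10.

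Of 67 further imprinted genes listed, 64 were in the table and 53 were tested. None was called at 3 weeks or 6 months in edgeR, DESeq2 or limma. At an unadjusted p under 0.05 there were 8 (15.1%, against 8.87% of all genes) and 10 (18.9%, against 15.5%), and the median log2 fold changes were -0.06 and 0.07. At 3 weeks 2 of these genes had a group without a count, and with those at their bounds, a floor of 3 counts over the group, the median was -0.05. Around Peg10 and Sgce on chromosome 6, Casd1 (an enzyme that acetylates sialic acid) had 0.18 ± 0.08 at 3 weeks and 0.07 ± 0.08 at 6 months (adjusted p = 0.503 and 0.759). Ppp1r9a, the actin-binding protein neurabin, had 0.02 ± 0.21 and 0.45 ± 0.21 (adjusted p = 0.997 and 0.302), and Tfpi2, a serine protease inhibitor, had -0.31 ± 0.11 and -0.32 ± 0.11 (adjusted p = 0.385 and 0.164). Asb4 had 0.31 ± 0.38 at 6 months (adjusted p = 0.767) and Pon3 -0.04 ± 0.10 (adjusted p = 0.91). At 3 weeks their means were -0.70 and 5.97 log2 CPM in the Rosa26 and -0.79 and 5.92 in the HIRA livers. Pon2 had 5.91 ± 0.14 log2 CPM in the Rosa26 and 6.03 ± 0.16 in the HIRA livers at 3 weeks (SD, n = 5). At 6 months it had 5.77 ± 0.14 and 6.06 ± 0.20.

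Beside Meg3 and Rian, the growth regulator Dlk1 had 0 to 6 counts in a library, and Dio3, which inactivates thyroid hormone, had 1 to 13. The difference of Dio3 in the controls over time was -1.46 ± 0.48 (adjusted p = 0.179, edgeR), beside -1.32 for Rian and -0.41 ± 0.32 for Meg3 (adjusted p = 0.656). In the Kcnq1 region, next to Igf2 and H19, the growth inhibitor Cdkn1c had 0.34 ± 0.20 at 3 weeks and -0.12 ± 0.19 at 6 months (adjusted p = 0.676 and 0.825). Phlda2, which restrains placental growth, had 0 to 2 counts in the controls and 1 to 12 in the HIRA livers at 6 months (adjusted p = 0.111, edgeR), and no fold is given at counts this low. Airn, the noncoding RNA antisense to Igf2r, had 4 to 30 counts in a library, with median counts of 9 in the controls and 7 in the HIRA livers at 6 months. Its fitted 6-month difference was 0.25 ± 0.46 (adjusted p = 0.862, edgeR), opposite in sign to the mean log2 CPM of -0.93 and -0.99, and 1 HIRA liver held the 30 counts.

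Of 19 factors that set or keep imprints, 18 were tested and none was called at 3 weeks or 6 months in edgeR, DESeq2 or limma, with 2 and 1 at an unadjusted p under 0.05. Zfp57, the zinc finger protein that binds methylated imprinting control regions, had 11 to 25 counts in the controls and 14 to 52 in the HIRA livers at 6 months, a difference of 0.69 ± 0.30 (adjusted p = 0.273), and its 3-week difference was -0.11 ± 0.31 (adjusted p = 0.97). Its cofactor Trim28 had 0.07 ± 0.08 at 3 weeks and 0.09 ± 0.08 at 6 months (adjusted p = 0.904 and 0.662), and the maintenance methyltransferase Dnmt1 had -0.04 ± 0.08 and 0.10 ± 0.08 (adjusted p = 0.963 and 0.604). The insulator protein Ctcf, which binds the unmethylated control region of H19, had -0.03 ± 0.06 and 0.08 ± 0.06 (adjusted p = 0.949 and 0.581). The de novo methyltransferase Dnmt3b had 124 to 167 counts in the controls and 45 to 123 in the HIRA livers at 3 weeks (-1.13 ± 0.37, adjusted p = 0.283), and Ctcfl 30 to 47 against 12 to 33 (-0.94 ± 0.29, adjusted p = 0.238). At 6 months these differences were -0.37 ± 0.37 for Dnmt3b and 0.19 ± 0.27 for Ctcfl (adjusted p = 0.70 and 0.799).

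Of 15 ligands, receptors and binding proteins of the IGF and insulin pathway, none was called between the guides at either time in edgeR, DESeq2 or limma, with 3 (20.0%, against 8.87% of all genes) and 5 (33.3%, against 15.5%) at an unadjusted p under 0.05. Igf1, the growth factor that adult liver makes in place of Igf2, was the 1 gene with an adjusted p under 0.05 and was lower in the HIRA livers at 6 months, with 8393 to 10964 counts against 11631 to 15108 (-0.47 ± 0.11, adjusted p = 0.0388, edgeR). Irs2, an adaptor of the insulin receptor, had -0.93 ± 0.26 at 3 weeks and -0.65 ± 0.26 at 6 months (adjusted p = 0.176 and 0.222). Igfbp1 had 8.15 ± 0.82 log2 CPM in the Rosa26 and 5.89 ± 1.73 in the HIRA livers at 3 weeks (SD, n = 5). At 6 months it had 6.03 ± 0.64 and 5.72 ± 1.18. In the controls over time 1 of the 15 was called in edgeR, against 0.162% of all genes, and 3 in DESeq2, which called 101 genes higher and 56 lower over the whole table. The binding protein Igfbp2 fell with time in the controls, from 5913 to 14518 counts down to 3330 to 7470 (-1.13 ± 0.21, adjusted p = 0.0227), and was 0.72 ± 0.21 higher in the HIRA livers at 6 months with an adjusted p of 0.0874.

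The fetal and gag-derived families gave no call at 3 weeks or 6 months in edgeR, DESeq2 or limma. Of 12 fetal liver genes and the factors that repress them after birth, 11 were tested, with 0 at an unadjusted p under 0.05 at both times. Afp, the fetal serum protein, had 0.00 ± 0.26 and -0.10 ± 0.26 (adjusted p = 1.0 and 0.909), and its repressors Zbtb20 and Zhx2 had 6-month differences of 0.02 ± 0.14 and -0.09 ± 0.11 (adjusted p = 0.971 and 0.76). Of 13 further genes derived, like Peg10, from retrotransposon gag sequences, 8 were tested, with 1 at an unadjusted p under 0.05 at 3 weeks and 0 at 6 months. Rtl8c, the 1 at 3 weeks, had 0.63 ± 0.30 there (adjusted p = 0.551) and 0.50 ± 0.29 at 6 months (adjusted p = 0.429). The imprinted Rtl1 of the Meg3 and Rian region had 2 counts over the series and was not tested.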

How the data were processed

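Poly(A) RNA from whole liver was sequenced with a directional kit. The deposited gene table holds raw counts and the deposited FPKM tables hold values the authors scaled by length and depth. The submitters' processing notes name STAR, HTSeq, Cufflinks and mm10, while the study's methods name HOMER for gene counts, and which made the deposited counts was not settled. Whether counting used strand is not given in the sources used here. Members and lists were chosen with earlier results of these data known. Genes with at least 10 counts over the 20 libraries were fitted in edgeR 4.0.16 (TMM, quasi-likelihood, group means, R 4.3.3, Benjamini-Hochberg), and log2 CPM used a prior count of 2. Named genes were all 10 members, the 5 genes most correlated with Peg10, and list genes by role, some of them chosen after their values were seen. Lists covered other imprinted genes, imprint factors, IGF partners, fetal liver genes, gag-derived genes, proliferation and 6 cell types. Alternatives used DESeq2 1.42.0, limma 3.58.1 on log2(FPKM + 1), other filters and scalings, a replicate block and left-out libraries. On simulated data for 22867 genes, 172 of 200 genes changed in the 3-week HIRA livers were recovered, with 8 false calls. Recovery was counted by adjusted p without the fold threshold. Only genes above a minimum level were changed, and no outlying library was simulated. These numbers therefore do not give the power for members at few counts or set by single livers. Coordinates are GRCm38 (GENCODE M21), in which 98.7% of IDs matched with version and Rian and Peg3 without it. Nothing states whether animals shared litters or batches, and p-values measure the spread between these animals. Precision is set by 19915007 to 24077577 counts per library.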

Additional observations from a re-analysis of the deposited data

Results flagged for a closer look

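Within each group of 5, each gene's extreme library was compared with the rest in log2 CPM by its gap to the nearest value over the group's range, with a limit of 0.71. Of 40 gene and group sets 3 exceeded it, where chance gives about 1 in 20. H19 in HIRA 6-month replicate 3 had 824 counts, far above the other 4 livers (0.779). Plagl1 in Rosa26 6-month replicate 5 had 47 counts, above the other 4 at 14 to 20 (0.752). Rian in Rosa26 3-week replicate 2 had 7 counts, below the other 4 at 10 to 13 (0.7104, just past the limit).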

How the results depend on the processing

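Peg10 was the 1 member called at 6 months, by its selection. The numbers of members called there describe the fits and are not evidence for its difference. The number became 0 when only the libraries of that comparison were fitted, where no gene of the whole table was called. It was also 0 under limma on log2(FPKM + 1), where the Peg10 difference was 0.36 on that scale. Leaving out 1 library gave 0 to 1 members, the call being lost without Rosa26 6-month replicate 4, where Peg10 was 2.32 higher. Over all such fits its 6-month difference ran from 2.13 to 3.04 and its 3-week difference from 0.53 to 0.94. Locus pairs with an adjusted permutation p under 0.05 numbered 1, 0 on log2(FPKM + 1), and 1 to 2 when a library was left out. Without HIRA 6-month replicate 3, H19 at 6 months was -1.12, and over left-out libraries it ran from -1.12 to 3.18. Peg3 at 6 months ran from 0.09 to 0.81, Grb10 from -0.02 to 0.41 and Plagl1 from -0.34 to 0.66. Genes called over the whole table ran from 3 to 43 at 3 weeks, 18 to 109 at 6 months and 2 to 83 in the controls over time when a library was left out, and from 4 to 67, 0 to 127 and 1 to 157 under the other settings. A replicate block called the same number of members, with Peg10 at 0.83 at 3 weeks and 2.38 at 6 months, and 27 genes called over the whole table at 3 weeks and 72 at 6 months. Replicate numbers were not taken as pairs of animals in the main fit. Libraries of the same number had deviations correlated from -0.125 to 0.296, which cannot settle whether those animals shared litters or batches. The cause of these changes was not tested. At 0 to 5 counts for Igf2 and 1 to 16 for Rian, the low counts limit what could be detected. Igf2 shares 3596 exonic bases with Gm49394, and the parts of depth and of read assignment in its low counts were not tested.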
